A study of Mus musculus with 6 samples.

Results

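The transcripts of 9 chemokine receptor genes were followed across the leukocytes of livers with diet-induced nonalcoholic steatohepatitis (NASH), an inflamed form of fatty liver. The genes were Ccr2, Ccr7, Ccr9, Cx3cr1, Cxcr2, Cxcr3, Cxcr4, Cxcr5 and Cxcr6. They were picked by symbol from the 19349 gene rows of each count table, and all 9 had rows in each of the 6 libraries. The libraries were droplet single-cell libraries (10x Genomics Chromium) of non-parenchymal liver cells, the cells of the liver other than hepatocytes. The mice were male C57BL/6J, 8 weeks old at purchase, and all 6 libraries came from mice kept on a high-fat diet for 24 weeks. In the last 8 weeks they received vehicle (DMSO, 3 libraries) or 10 mg/kg ginkgetin (a biflavone from plants) daily into the stomach (3 libraries). The comparison asks what ginkgetin does to liver leukocytes in NASH. The sources do not say whether a library holds the cells of 1 mouse or of several, so p-values measure the spread between these libraries.

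Chemokine receptors are membrane receptors coupled to G proteins. They bind chemokines, small secreted proteins, and direct leukocytes out of the blood, through a tissue or into a niche. Ccr2 binds Ccl2 and brings monocytes from bone marrow to inflamed liver. Cx3cr1 binds Cx3cl1 and marks patrolling monocytes and many tissue macrophages, while adult Kupffer cells, the resident macrophages of the liver, carry little of it. Cxcr2 brings in neutrophils. Cxcr3 and Cxcr6 are borne by effector and tissue-resident T, NK and innate lymphoid cells, and Cxcr6 with its ligand Cxcl16 holds such cells along the liver sinusoids. Ccr7 leads naive T cells, B cells and mature dendritic cells to lymph nodes, Cxcr5 leads B cells to follicles, Ccr9 leads cells to the gut and marks plasmacytoid dendritic cells (pDC), and Cxcr4 retains cells where Cxcl12 is made.

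After filtering on genes per cell (250 to 5000) and mitochondrial share (below 5%), 27544 of 33168 barcodes remained. The study's methods give the first range for UMIs per cell, and it was applied here to genes per cell. Results with the UMI range therefore stand beside the receptor calls it changes. Receptor fold changes whose sign it turned are listed in a later section. The kept cells per library were 6017, 3336 and 4137 with vehicle and 3493, 6918 and 3643 with ginkgetin, with total counts of 13128697 to 61796882 unique molecular identifiers (UMIs) per table. Clustering without any chemokine receptor gene, and naming by marker genes, placed 17098 cells in 22 leukocyte groups, of which 18 carry a cell type name (written with -like) and 4 T cell clusters are named by 2 leading genes. Replicate 3 of both groups came from another barcode set, with deeper libraries and partly other gene symbols than replicates 1 and 2, so counts are also given without them. Any 2 libraries shared 0 to 85 barcodes. Levels are in CPM, the UMIs of a gene per 1e6 UMIs of all genes, both summed over the cells of a type in a library. They are given for types with at least 10 cells there, in the order of replicates 1, 2 and 3.

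**Figure D1:**
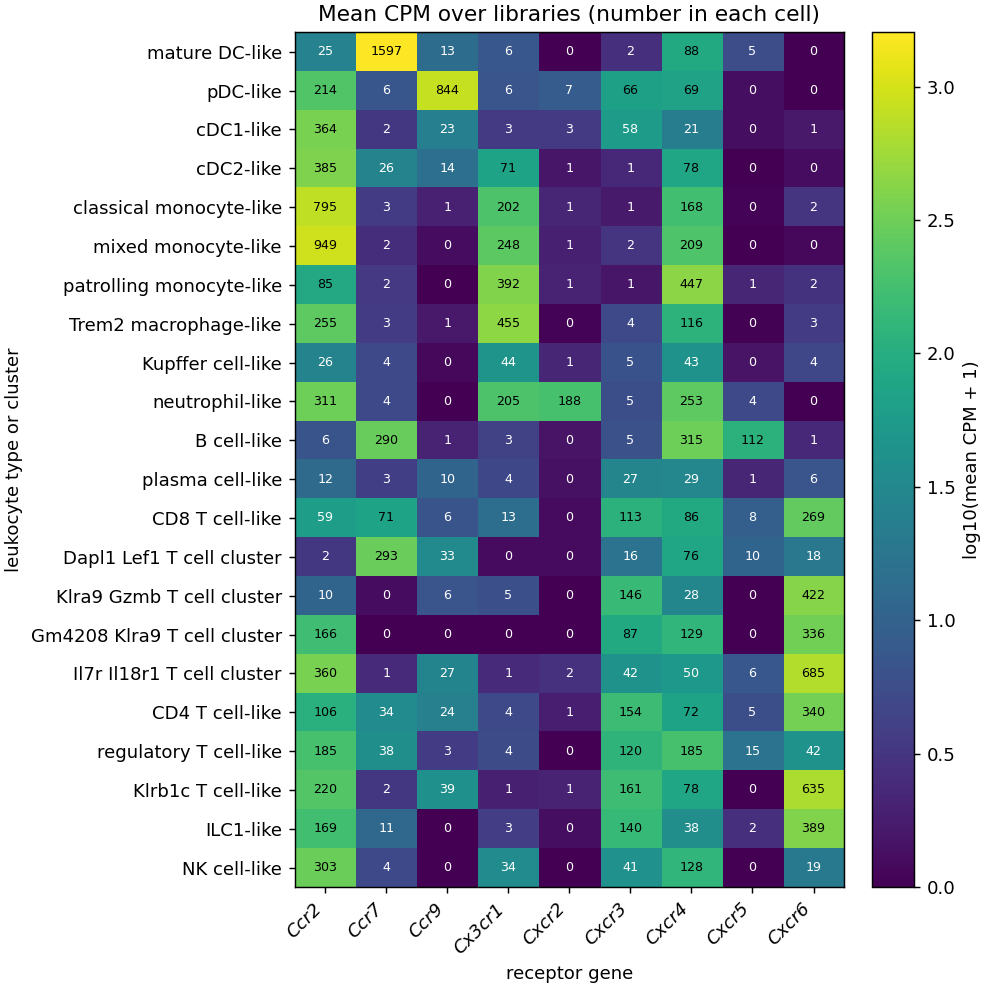
Mean CPM over libraries of each of the 9 receptors (columns) in each of the 22 leukocyte groups (rows), with the number in each cell and colour for log10(mean CPM + 1). Ccr7, Ccr9, Cxcr2 and Cxcr5 each peak in a single group, whereas Cxcr4 and Ccr2 are found in most groups.

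The 9 receptors differed in how widely they were found. Ccr2 reached a mean of 50 CPM, with vehicle or with ginkgetin, in 16 of the 22 groups and Cxcr4 in 18, Cxcr3 in 10, Cx3cr1 and Cxcr6 in 7 each, Ccr7 in 5, Ccr9 in 2, and Cxcr2 and Cxcr5 in 1 each. Over the 22 groups 20 pairs of receptor and group had no UMI in any library, of which 6 belonged to Cxcr5 and 5 to Ccr9. In the 4 kinds of non-leukocytes (endothelial, stellate cell or fibroblast, cholangiocyte and hepatocyte) no receptor passed 24.3 CPM in any library, apart from Cx3cr1 in stellate cell or fibroblast-like cells (0 to 106 CPM).

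Among the receptors of monocytes and macrophages, Ccr2 was highest in mixed monocyte-like cells, which hold markers of classical and patrolling monocytes in equal number, at 949 ± 418 CPM (SD, n = 6). Classical monocyte-like cells followed at 795 ± 250 CPM (SD, n = 6), and the ranges of these neighbours over libraries overlapped. The next group, cDC2-like cells, had 385 CPM, and in the vehicle libraries its range (284 to 391 CPM) lay below that of classical monocyte-like cells (578 to 797 CPM), while ginkgetin replicate 3 reached 597 CPM. Among further groups cDC1-like and NK cell-like cells had 364 and 303 CPM, while B cell-like cells held 5.79 CPM. A T cell cluster with Il7r and Il18r1 also held Ccr2, at 307, 361 and 402 CPM with vehicle. Over the 6 libraries Cx3cr1 had its highest mean in Trem2 macrophage-like cells, at 455 ± 308 CPM (SD, n = 6). This type is named by 8 markers of the lipid-associated macrophages of fatty liver, and 7 of these were lower in every ginkgetin library. Patrolling monocyte-like cells had 392 CPM and overlapped with the Trem2 macrophage-like cells. This order differed by group, since with vehicle every library of the patrolling monocyte-like cells (304 to 331 CPM) lay above every library of the Trem2 macrophage-like cells (175 to 248 CPM). Mixed monocyte-like, neutrophil-like and classical monocyte-like cells had 248, 205 and 202 CPM, with a clear step of 2.86 times below the last of them, and Kupffer cell-like cells had 44.1 CPM. Cxcr2 reached 50 CPM in neutrophil-like cells alone, with 215 and 249 CPM in vehicle replicates 1 and 3 and 99.5 CPM in ginkgetin replicate 2, the 3 libraries with at least 10 such cells. That mean was 25.1 times the level of the next group, and the 3 libraries lay clear of it.

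Among the receptors of effector lymphocytes, Cxcr6 led in a T cell cluster with Il7r and Il18r1, at 584, 679 and 837 CPM with vehicle and 640.4 CPM in ginkgetin replicate 2, the 1 ginkgetin library with 10 cells of it. Klrb1c T cell-like cells, T cells with Klrb1c, Il2rb and Xcl1 among their markers, had 635 ± 183 CPM (SD, n = 6). Lower levels with overlapping ranges were found in a T cell cluster with Klra9 and Gzmb (422 CPM) and in ILC1-like, CD4 T cell-like and CD8 T cell-like cells (389, 340.1 and 269 CPM). Below CD8 T cell-like cells came a step of 6.45 times to the next group, with no overlap. Cxcr3 was found at lower levels in most of these lymphocytes, at 161 CPM in Klrb1c T cell-like, 154 CPM in CD4 T cell-like, 140.0 CPM in ILC1-like and 113 CPM in CD8 T cell-like cells. The receptors parted in the Il7r and Il18r1 cluster, where Cxcr3 had 42.3 CPM, and in regulatory T cell-like cells, where Cxcr3 had 120 CPM and Cxcr6 41.7 CPM. It was also seen in pDC-like and cDC1-like cells (66.1 and 57.9 CPM).

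Cxcr3, Cxcr6 and Cx3cr1 are shown by their promoter sequence because the first pair was found together in Klrb1c, CD4 and CD8 T cell-like and ILC1-like cells and the third had its highest levels in myeloid groups. The promoters run from 250 bases before to 50 after the gene start in RefSeq (GRCm38.p6), at chrX:101734098-101734397 (- strand) for Cxcr3, chr9:123806227-123806526 (+ strand) for Cxcr6 and chr9:120068247-120068546 (- strand) for Cx3cr1. Capitals mark letters of the RUNX motif ACCACA or the ETS motif AGGAAG on either strand (TGTGGT and CTTCCT), and the T-box motif TCACACC (reverse GGTGTGA) was also searched.
Cxcr3: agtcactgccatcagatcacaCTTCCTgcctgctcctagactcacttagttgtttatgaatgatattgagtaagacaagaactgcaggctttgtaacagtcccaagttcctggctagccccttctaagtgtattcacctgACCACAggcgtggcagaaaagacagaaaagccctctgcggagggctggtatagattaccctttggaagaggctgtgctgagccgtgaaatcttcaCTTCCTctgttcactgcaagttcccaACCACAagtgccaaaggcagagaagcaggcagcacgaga
Cxcr6: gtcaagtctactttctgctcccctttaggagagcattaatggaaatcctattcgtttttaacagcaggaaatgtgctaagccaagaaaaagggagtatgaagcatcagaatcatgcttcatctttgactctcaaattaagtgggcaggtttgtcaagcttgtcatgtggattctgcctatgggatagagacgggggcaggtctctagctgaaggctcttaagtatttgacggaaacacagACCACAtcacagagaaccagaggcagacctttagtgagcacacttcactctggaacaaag
Cx3cr1: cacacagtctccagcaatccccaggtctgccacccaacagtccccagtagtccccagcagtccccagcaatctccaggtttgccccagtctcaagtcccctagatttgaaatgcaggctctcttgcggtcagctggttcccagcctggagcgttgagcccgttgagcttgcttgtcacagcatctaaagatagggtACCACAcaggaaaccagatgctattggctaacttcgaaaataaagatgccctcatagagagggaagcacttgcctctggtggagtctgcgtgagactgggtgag
The Cxcr3 window held 2 RUNX and 2 ETS matches, the Cxcr6 window 1 RUNX match and the Cx3cr1 window 1 RUNX match, none of them overlapping another, and none of the 3 windows held the T-box letters. Of 32851 RefSeq promoters of that length, 16.8% held the RUNX letters, 35.4% the ETS letters and 3.98% the T-box letters. These matches describe the letters only.

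By GENCODE M21 coordinates on GRCm38, 5 of the 9 genes lie on chromosome 9, namely Cxcr5 (chr9:44511787-44561877, - strand), Cx3cr1 (chr9:119901616-120069879, - strand), Ccr9 (chr9:123678439-123784330, + strand), Cxcr6 (chr9:123806475-123811760, + strand) and Ccr2 (chr9:124101950-124113557, + strand). The last 3 span 435.1 kb, although their levels peaked in pDC-like cells, a T cell cluster and monocyte-like cells. Cxcr6 lies wholly inside Fyco1, a gene of the opposite strand, and the annotated extents of Ccr9 and Cx3cr1 overlap Lztfl1 and Gorasp1 among others. The strand setting of the counting is not given in the sources used here, so for these 3 genes reads of the overlapping gene cannot be told apart. The other members lie at chr1:74153989-74161246 (Cxcr2, + strand), chr1:128588199-128592293 (Cxcr4, - strand), chr11:99144196-99155077 (Ccr7, - strand) and chrX:101731535-101734269 (Cxcr3, - strand).

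The homing receptors of lymphoid tissue and gut were restricted to few groups. Ccr7 stood at 1376, 1201 and 2068 CPM with vehicle in mature DC-like cells, named by Fscn1 and other markers than Ccr7. In ginkgetin replicates 2 and 3 it stood there at 1379 and 1963 CPM, and ginkgetin replicate 1 held 3 such cells and gives no value. This was 5.46 times the level of the next group, a T cell cluster with Dapl1 and Lef1, genes of naive T cells, at 293 ± 141 CPM (SD, n = 6), which overlapped with B cell-like cells at 289.8 CPM. Ccr9 was found at 844 ± 256 CPM (SD, n = 6) in pDC-like cells, 21.6 times the next group, with every library clear of it. Cxcr5 was found at 112 ± 42.1 CPM (SD, n = 6) in B cell-like cells, 7.26 times the next group and again clear of it. Cxcr4 had no such step. It was highest in patrolling monocyte-like cells at 447 ± 304 CPM (SD, n = 6), then in B cell-like cells at 315 CPM, and the libraries overlapped.

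Pairs of receptors were counted in the same cells of a type. With each cell thinned to 1000 UMIs, 59 of 2011 CD8 T cell-like cells had a Ccr7 UMI. Of these, 1 had a Cxcr6 UMI (1.69%), against 24.1% of the CD8 T cell-like cells without Ccr7. Cxcr3 was seen in 5.08% of those with Ccr7 and 11.2% of those without, but this turned by group, at 0 and 13.9% with vehicle and 8.33 and 6.38% with ginkgetin. For the effector pair in Klrb1c T cell-like cells, 69 of 131 cells with Cxcr3 also had Cxcr6 (52.7%), against 43.2% of the rest. In B cell-like cells, 74 of 631 cells with Ccr7 had Cxcr5 (11.7%), against 10.1%, with 11.8 and 7.15% in the vehicle cells and 11.7 and 11.5% in the ginkgetin cells. Among Trem2 macrophage-like cells, 80 of 263 cells with Ccr2 had Cx3cr1 (30.4%), against 19.7%. For the same pair the shares were 15.5 and 16.4% in classical monocyte-like cells and 21.4 and 20.8% in mixed monocyte-like cells. In patrolling monocyte-like cells, with 21 Ccr2 cells, they were 42.9 and 26.9%. This turned by group, at 0 and 23.6% with vehicle and 75.0 and 32.4% with ginkgetin. These cells were pooled over the 6 libraries and are a description with no test.

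Over the 22 groups the genes whose log2 level followed a member most closely, among 5214 genes compared, differed by member. For Cx3cr1 they were Sirpb1c (r = 0.93), Sirpb1b (r = 0.92) and Emilin2 (r = 0.92), for Cxcr6 Aak1 (r = 0.95), Gm20069 (r = 0.94) and Zap70 (r = 0.94), and for Cxcr2 S100a8 (r = 0.95), S100a9 (r = 0.90) and Alox15 (r = 0.89). S100a8 and S100a9 are granule-associated proteins of neutrophils and Zap70 is a kinase of the T cell receptor pathway. For Ccr9 they were Lrp8 (r = 0.87), Ptprf (r = 0.74) and Klk1b27 (r = 0.72), for Cxcr3 Hp1bp3 (r = 0.87), Immp1l (r = 0.87) and Asxl2 (r = 0.86), and for Cxcr5 Cpm (r = 0.86), Farsb (r = 0.74) and Ccr6 (r = 0.71). Ccr7, Ccr2 and Cxcr4 had looser neighbours. Those of Ccr7 were Gm13546 (r = 0.70), Cxcr5 (r = 0.70) and Prpf38b (r = 0.69), those of Ccr2 Cox7b (r = 0.81), D8Ertd738e (r = 0.74) and 2310011J03Rik (r = 0.73), and those of Cxcr4 included Xylt1 (r = 0.78) and Bcl10 (r = 0.74). The points are means over the same 6 libraries, and depth is shared between them.

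Ginkgetin and vehicle were then compared within each type, on counts summed per library and fitted over all genes (edgeR quasi-likelihood test), and a pair was called where the change exceeded 2-fold and p, adjusted by Benjamini-Hochberg, was under 0.05. Of 64 pairs of receptor and type that could be tested, 2 were called, both in Kupffer cell-like cells and both lower with ginkgetin. The share of all gene and type pairs called was 1.48%. Log2 fold changes were above 0 in 36 pairs and below 0 in 28, with a median of 0.12. Without the third replicates 2 of 58 pairs were called, Cx3cr1 in Kupffer cell-like and in Trem2 macrophage-like cells. With the cell range applied to UMIs 1 of 36 pairs was called, Cx3cr1 in Kupffer cell-like cells. Deviations of libraries with the same number were correlated, most so for replicate 3, and libraries of different number were not compared. A fit with the replicate number as a block called 7 of the 64 pairs, against 3.45% of all pairs. In 9 of the 64 pairs the libraries of the groups did not overlap, as in 19.7% of all pairs.

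**Figure D2:**
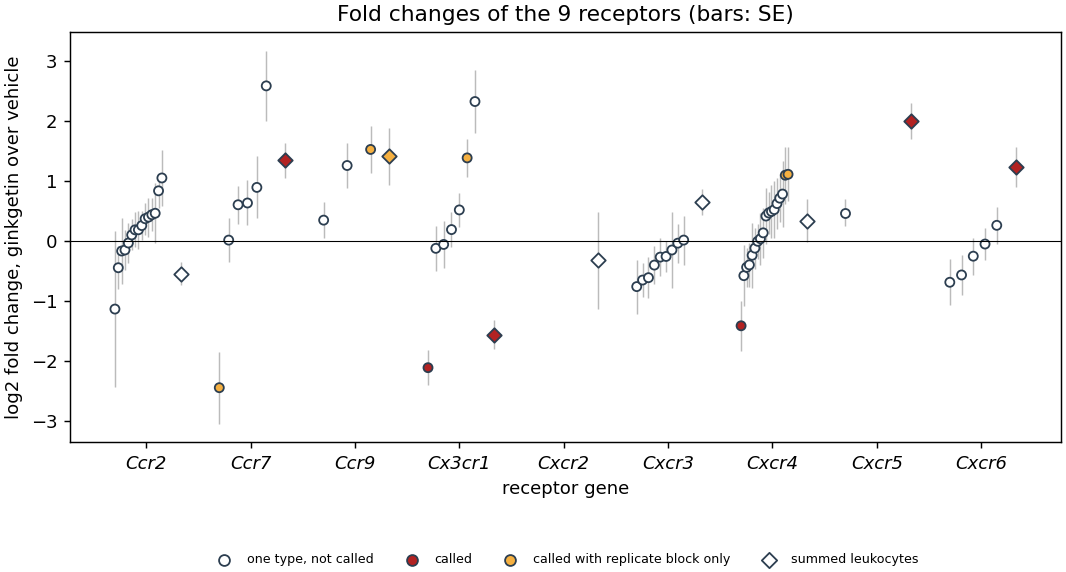
Log2 fold change (y axis), ginkgetin over vehicle, of each receptor (x axis) in each leukocyte type tested (circles) and in summed leukocytes (diamonds), with bars of 1 SE from edgeR, red for calls and orange for calls with the replicate block only. The called circles, Cx3cr1 and Cxcr4 in Kupffer cell-like cells, lie at -2.11 and -1.41, while Cx3cr1 in Trem2 macrophage-like cells lies at 1.39 and is called only with the block.

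Cx3cr1, the fractalkine receptor, fell in Kupffer cell-like cells. It stood at 50.2, 65.5 and 84.6 CPM in the vehicle libraries and 16.8, 28.9 and 18.7 CPM in the ginkgetin libraries, and every ginkgetin library was below every vehicle library (log2 fold change -2.11 ± 0.30, adjusted p = 0.00466). The call held with each library left out in turn (-2.42 to -1.86). With the UMI range the value was -3.33 (adjusted p = 0.00421). In the same type 12.8% of 8563 genes were called and 6.75% were called lower. The share of Kupffer cell-like cells with a Cx3cr1 UMI, each cell thinned to 1000 UMIs, was 5.06, 6.43 and 5.32% with vehicle and 1.15, 1.08 and 1.65% with ginkgetin (exact permutation test, two-sided, p = 0.10, the smallest that 3 against 3 libraries allow). Before thinning it was 19.6, 16.7 and 26.5% and 2.30, 2.70 and 2.50%. In cholangiocyte-like cells, which should lack the gene, the thinned share was 0% in all 6 libraries.

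The Kupffer cell-like cells of the groups came from 3 clusters in different shares, and Cx3cr1 did not move one way in all 3. In the cluster led by Cd207 and Apoc1 it was 97.4 CPM with vehicle (691 cells) and 224 CPM with ginkgetin (19 cells, 31 UMIs). In that led by C6 and Cd163 it was 46.6 CPM with vehicle (178 cells) and 9.72 CPM with ginkgetin (519 cells, 9 UMIs). In the one led by Folr2 and Clec4f it was 19.6 CPM with vehicle (345 cells) and 5.71 CPM with ginkgetin (214 cells, 7 UMIs). These are pooled values with no test. The level was thus lower with ginkgetin in the clusters that held most ginkgetin cells, and higher in the one that held most vehicle cells and 19 ginkgetin cells. Other measures moved with the result. Median UMIs per Kupffer cell-like cell were 9926 with vehicle and 2034 with ginkgetin. Of 8 Trem2 macrophage markers, 6 were lower in every ginkgetin library, and their sum ran from 3855 to 5131 CPM with vehicle and from 1295 to 2499 CPM with ginkgetin. Trem2 itself reached 812 CPM with vehicle and 53.4 CPM with ginkgetin. All 7 endothelial markers were higher in every ginkgetin library, with sums from 142 to 157 CPM with vehicle and from 442 to 1333 CPM with ginkgetin. The 7 Kupffer cell markers summed to 12642 to 14387 CPM with vehicle and 13343 to 19732 CPM with ginkgetin. Their part in the result was not tested.

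**Figure D3:**
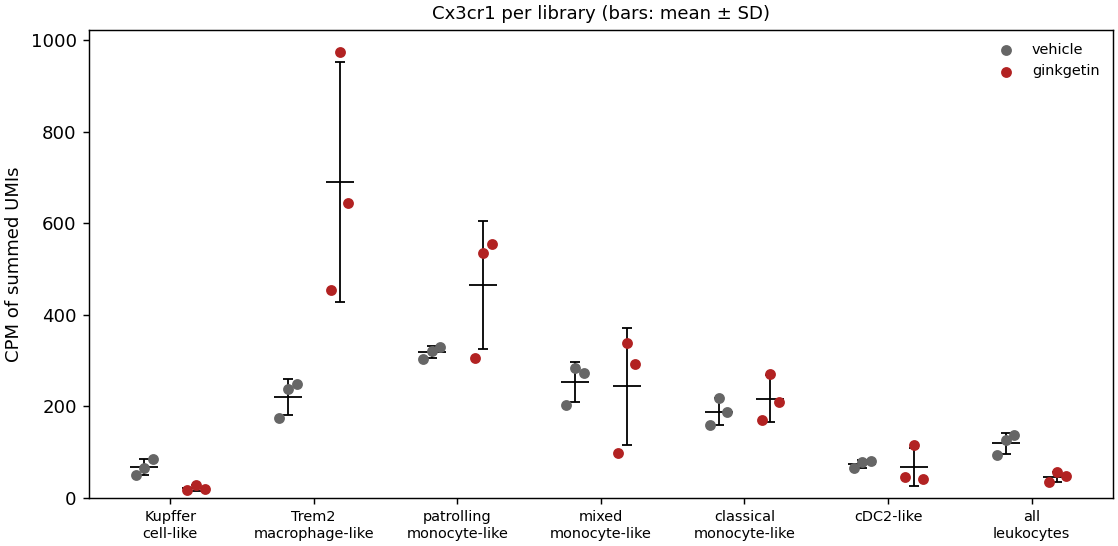
Cx3cr1 level in CPM (y axis) in 6 types and in summed leukocytes (x axis), with a point for each of the 3 vehicle and 3 ginkgetin libraries and bars for the mean ± SD. In Kupffer cell-like cells the ginkgetin libraries sit at 16.8 to 28.9 CPM below the vehicle libraries at 50.2 to 84.6 CPM, and in Trem2 macrophage-like cells they sit above them.

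In Trem2 macrophage-like cells Cx3cr1 stood at 175, 237 and 248 CPM in the vehicle libraries and 455, 974 and 644 CPM in the ginkgetin libraries, again with no overlap and here with ginkgetin higher. The change missed the threshold without the block (log2 fold change 1.39 ± 0.32, adjusted p = 0.0646) and passed it with the replicate block (log2 fold change 1.34 with an adjusted p of 0.000371). It also passed with no gene filter (1.27 with adjusted p = 0.00901), in DESeq2 (1.42 with adjusted p = 0.000906), in limma-voom (1.35 with adjusted p = 0.0458), without the third replicates, at 1.56 (adjusted p = 0.0403), and without vehicle replicate 3, at 1.58 (adjusted p = 0.0470). With 1 library left out, 0 to 2 of the 3 receptors tested in this type were called higher. With the UMI range no receptor was called in it. In this type 1.56% of genes were called. Thinned shares of cells with a UMI were 17.4, 19.1 and 23.1% with vehicle and 28.6, 46.5 and 47.2% with ginkgetin (exact permutation test, p = 0.10). Before thinning they were 51.3, 52.7 and 66.1% and 76.2, 88.4 and 80.6%.

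The ginkgetin libraries held 21, 43 and 36 Trem2 macrophage-like cells and the vehicle libraries 667, 376 and 661. Their clusters also differed in share. In the cluster led by Ms4a7 and Pf4 it was 398 CPM with vehicle (809 cells) and 815 CPM with ginkgetin (84 cells, 424 UMIs). In that led by Mmp12 and Mmp13 it was 47.9 CPM with vehicle (461 cells) and 292 CPM with ginkgetin (10 cells, 13 UMIs). In the one led by Spp1 and Fabp5 it was 131 CPM with vehicle (434 cells) and 132 CPM with ginkgetin (6 cells, 10 UMIs). The Ms4a7 and Pf4 cluster, in which Cx3cr1 was highest, thus held 84 of 100 ginkgetin cells. Of the 8 Trem2 macrophage markers, 7 were lower in every ginkgetin library, with sums from 10126 to 12174 CPM with vehicle and from 1566 to 4004 CPM with ginkgetin. The 7 Kupffer cell markers summed to 2029 to 2930.4 CPM with vehicle and 1012 to 1108 CPM with ginkgetin. The part of either in the result was not tested.

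The opposite directions were compared in a joint fit of the macrophage types. The Cx3cr1 change in Trem2 macrophage-like cells exceeded that in Kupffer cell-like cells by 3.53 ± 0.23 on the log2 scale, adjusted p = 5.28e-13. In that fit 4.22% of genes were called. The types were chosen for this test after their values were seen. In patrolling monocyte-like cells Cx3cr1 stood at 304, 320.3 and 331 CPM with vehicle and 305, 536 and 555 CPM with ginkgetin (log2 fold change 0.52 ± 0.28, adjusted p = 0.466) and in classical monocyte-like cells at 159, 218 and 188 CPM with vehicle and 169.8, 271 and 209 CPM with ginkgetin (log2 fold change 0.19 ± 0.29, adjusted p = 0.796), neither of them called. The libraries of the groups overlapped in both.

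Cxcr4, the receptor for Cxcl12, was called lower in Kupffer cell-like cells, at 36.1, 39.5 and 91.6 CPM in the vehicle libraries and 25.2, 42.3 and 21.2 CPM in the ginkgetin libraries (log2 fold change -1.41 ± 0.42, adjusted p = 0.0470). The groups overlapped, since ginkgetin replicate 2 lay above vehicle replicates 1 and 2. The call was lost with any 1 of the 6 libraries left out and without the third replicates. With 1 library left out, the log2 fold change ran from -1.84 to -1.01 with adjusted p from 0.0519 to 0.198. Without the third replicates it was -0.50 (adjusted p = 0.260), with receptors kept in the clustering -0.97 (adjusted p = 0.168), with the UMI range -0.98 (adjusted p = 0.170) and at a doubled Leiden resolution -1.41 (adjusted p = 0.0601). Thinned shares were 4.66, 3.51 and 10.9% with vehicle and 3.45, 2.16 and 1.89% with ginkgetin, against at most 2.21% in cholangiocyte-like cells (exact permutation test, p = 0.10). The shares of ginkgetin replicates 2 and 3 thus lay at or below this background. In Trem2 macrophage-like cells Cxcr4 stood at 53.9, 48.5 and 133 CPM with vehicle and 189, 96.9 and 173 CPM with ginkgetin (log2 fold change 0.72 ± 0.40, adjusted p = 0.385), and this change exceeded that in Kupffer cell-like cells by 2.20 ± 0.31 on the log2 scale, adjusted p = 5.21e-06. Over all types, changes were above 0 in 11 of 18 types tested.

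Patrolling monocyte-like cells had Cxcr4 at 154, 178 and 494 CPM in the vehicle libraries and 694, 260.0 and 900.3 CPM in the ginkgetin libraries (log2 fold change 1.10 ± 0.47, adjusted p = 0.367), with replicate 3 the highest in each group. The change passed with the replicate block (1.13 with an adjusted p of 0.0367). Cells of the B cell-like type showed the same order, at 94.5, 134 and 324 CPM with vehicle and 288, 241 and 808 CPM with ginkgetin (log2 fold change 1.12 ± 0.45, adjusted p = 0.341), and passed with the replicate block (1.18 with an adjusted p of 0.0164). Within each replicate number the ginkgetin library was the higher one, whereas the groups overlapped across numbers. In CD4 T cell-like cells the level was 52.6, 78.0 and 120.2 CPM with vehicle and 65.1, 40.9 and 73.0 CPM with ginkgetin, with overlap and no call.

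Ccr2, the receptor of inflammatory monocytes, was called by edgeR in none of 15 types tested, with an unadjusted p under 0.05 in 2, DESeq2 calls in 0 and limma-voom calls in 0, and its log2 fold change was above 0 in 10 of them. In mixed monocyte-like cells it stood at 738, 714 and 931 CPM in the vehicle libraries and 684, 848 and 1781 CPM in the ginkgetin libraries (log2 fold change 0.40 ± 0.33, adjusted p = 0.720). In classical monocyte-like cells it stood at 617, 578 and 797 CPM with vehicle and 702, 809 and 1269 CPM with ginkgetin (log2 fold change 0.44 ± 0.28, adjusted p = 0.495). Ginkgetin replicate 3 was the highest library in both, and the other ginkgetin libraries lay among the vehicle libraries or next to them. Trem2 macrophage-like cells were the 1 type in which the groups did not overlap, at 161, 138 and 184 CPM with vehicle and 245, 291 and 509 CPM with ginkgetin (log2 fold change 0.84 ± 0.28, adjusted p = 0.167). With the replicate block the value there was 0.82 with an adjusted p of 0.0298, a change under 2-fold and so not called. The Ccr2 change in Trem2 macrophage-like cells exceeded that in Kupffer cell-like cells by 1.31 ± 0.37 on the log2 scale, adjusted p = 0.0246.

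Ccr7 had log2 fold changes of opposite sign in CD8 T cell-like and cDC2-like cells. Neither was called by edgeR with the gene filter or by limma-voom, and both were called by DESeq2 and with no gene filter. In CD8 T cell-like cells it stood at 21.0, 6.57 and 28.9 CPM in the vehicle libraries and 33.2, 96.7 and 243 CPM in the ginkgetin libraries, with every ginkgetin library higher (log2 fold change 2.59 ± 0.58, adjusted p = 0.275), and the block did not bring a call (2.43 with an adjusted p of 0.0609). DESeq2 gave 2.66 (adjusted p = 0.00117) and edgeR with no gene filter 2.50 (adjusted p = 8.56e-05) for Ccr7 there. In cDC2-like cells, conventional dendritic cells that prime CD4 T cells, a pair below 50 CPM named after its values were seen, it stood at 30.1, 50.6 and 47.9 CPM in the vehicle libraries and 20.0, 6.39 and 1.47 CPM in the ginkgetin libraries, with every ginkgetin library lower (log2 fold change -2.44 ± 0.60, adjusted p = 0.105), and passed with the replicate block (-2.52 with an adjusted p of 0.0147). DESeq2 gave -2.35 (adjusted p = 0.0196) and edgeR with no gene filter -2.52 (adjusted p = 3.82e-06) for Ccr7 in that type. In cDC2-like cells 0.588% of genes were called. The CD8 T cell-like change exceeded the cDC2-like change by 5.20 ± 0.61 on the log2 scale, adjusted p = 3.14e-05, in a fit that called 0.641% of genes. This pair of types was also chosen after the values were seen.

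**Figure D4:**
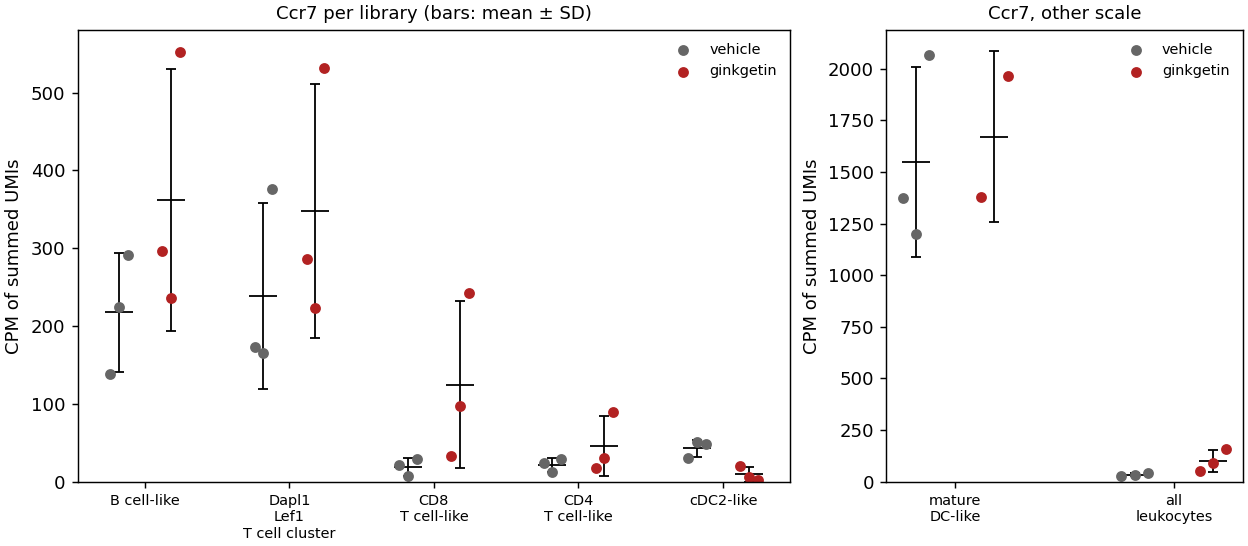
Ccr7 level in CPM (y axis, on another scale in the right panel) in 6 types and in summed leukocytes (x axis), with a point for each library of at least 10 cells and bars for the mean ± SD. The groups do not overlap in CD8 T cell-like cells (ginkgetin higher) or cDC2-like cells (ginkgetin lower), and they overlap in the B cell-like cells and the Dapl1 Lef1 T cell cluster.

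Ccr7 was not even over the 5 clusters of CD8 T cell-like cells. It was highest in the cluster led by Gzmm and Ms4a4c, at 84.5 CPM with vehicle (166 cells) and 217 CPM with ginkgetin (199 cells). In the cluster led by the interferon-induced genes Ifit1 and Ifit3 it was at 0 CPM with vehicle (32 cells) and 122 CPM with ginkgetin (49 cells, 28 UMIs). The largest vehicle clusters held little of it, with 0.530 and 6.23 CPM in that led by Gzmk and Rgs16 and 12.9 and 18.9 CPM in that led by Cd8b1 and Ly6c2. The 4 CD8 T cell markers measured in both barcode sets summed to 1704 to 2264 CPM with vehicle and 913 to 1442 CPM with ginkgetin in CD8 T cell-like cells, and 2 of them were lower in every ginkgetin library. The sum of 8 B cell markers in CD8 T cell-like cells, of which 4 were higher in every ginkgetin library, ran from 7.81 to 11.0 CPM with vehicle and from 19.7 to 56.6 CPM with ginkgetin, and that of 8 mature DC markers from 104 to 111 CPM with vehicle and from 71.2 to 107 CPM with ginkgetin. In cDC2-like cells Ccr7 came from the cluster led by Mgl2 and H2-DMb2 (72.1 and 12.1 CPM), and the mature DC markers, 2 of 8 lower in every ginkgetin library, summed from 266 to 388 CPM with vehicle and from 123 to 283 CPM with ginkgetin. Their part in the result was not tested.

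In the Dapl1 Lef1 T cell cluster and in B cell-like cells, where Ccr7 is abundant, the groups overlapped across replicate numbers, and within each number the ginkgetin library was higher. The Dapl1 Lef1 T cell cluster had 173, 165 and 376 CPM in the vehicle libraries and 287, 224 and 532 CPM in the ginkgetin libraries (log2 fold change 0.64 ± 0.38, adjusted p = 0.928), and B cell-like cells 138, 224 and 291 CPM with vehicle and 297, 236 and 553 CPM with ginkgetin (log2 fold change 0.61 ± 0.32, adjusted p = 0.426). With the replicate block the values were 0.71 with an adjusted p of 0.30 and 0.63 with an adjusted p of 0.152, and neither was called. Cx3cr1 in CD8 T cell-like cells, likewise named after its values were seen, was low throughout, at 4.88, 4.38 and 5.25 CPM with vehicle and 38.5, 16.4 and 11.4 CPM with ginkgetin, without overlap and without a call (log2 fold change 2.33 ± 0.52, adjusted p = 0.275). It was called by DESeq2 (2.35 with adjusted p = 0.0319) and with no gene filter (2.26 with adjusted p = 0.00346). Most of its ginkgetin UMIs lay in the Cd8b1 and Ly6c2 cluster, where the level was 8.79 CPM with vehicle and 97.8 CPM with ginkgetin (57 UMIs). Against Kupffer cell-like cells, in a joint fit that called 6.51% of genes, the Cx3cr1 change in CD8 T cell-like cells was higher by 4.06 ± 0.47 on the log2 scale, adjusted p = 6.82e-07.

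Ccr9 was higher in every ginkgetin library in 2 of 3 types tested, where 19.7% of all gene and type pairs did not overlap in either direction. Neither was called by edgeR with the gene filter and no block. In cDC1-like cells, which cross-present antigen and are named here after their values were seen, it stood at 12.6, 18.6 and 7.19 CPM in the vehicle libraries and 27.0, 35.6 and 38.7 CPM in the ginkgetin libraries (log2 fold change 1.53 ± 0.39, adjusted p = 0.152), and it passed with the replicate block (1.53 with an adjusted p of 0.0123) and with no gene filter (1.40 with adjusted p = 0.0361). In Klrb1c T cell-like cells it stood at 25.1, 20.8 and 20.7 CPM with vehicle and 44.1, 33.7 and 89.7 CPM with ginkgetin (log2 fold change 1.26 ± 0.38, adjusted p = 0.335), and the block brought no call (1.23 with an adjusted p of 0.0835). Thinned shares there were 3.01, 1.08 and 1.75% and 4.17, 4.47 and 8.40%, against at most 0.21% in endothelial-like cells, and before thinning the groups overlapped (exact permutation test, p = 0.40). The 9 pDC markers summed to 114 to 159 CPM with vehicle and 138 to 144 CPM with ginkgetin in Klrb1c T cell-like cells, and 2 of them were higher in every ginkgetin library, while the defining marker Siglech reached at most 3.46 CPM with vehicle and 1.70 CPM with ginkgetin. Their part in the result was not tested. In pDC-like cells, where Ccr9 is abundant, it stood at 876, 721 and 636 CPM with vehicle and 698, 795 and 1339 CPM with ginkgetin and the groups overlapped (log2 fold change 0.35 ± 0.30, adjusted p = 0.772).

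Cxcr5, the follicle-homing receptor, was tested in B cell-like cells alone and was higher in every ginkgetin library there, at 83.2, 86.9 and 97.6 CPM in the vehicle libraries and 107, 102 and 196 CPM in the ginkgetin libraries (log2 fold change 0.48 ± 0.23, adjusted p = 0.397). It was not called, with or without the block. Thinned shares were 7.40, 8.71 and 8.30% and 10.2, 9.87 and 17.7% (exact permutation test, p = 0.10), and before thinning the groups overlapped (p = 0.90). Cxcr2 passed the count filter in no type, and neutrophil-like cells reached 10 in 2 vehicle libraries and 1 ginkgetin library, so its change could not be tested.

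The effector receptors Cxcr3 and Cxcr6 gave no edgeR call in 9 and 5 types tested. Cxcr3 had an unadjusted p under 0.05 in 1, DESeq2 calls in 0 and limma-voom calls in 0 of them, and Cxcr6 an unadjusted p under 0.05 in 0, DESeq2 calls in 0 and limma-voom calls in 0. Cxcr3 had a log2 fold change below 0 in 8 of 9 types, with a median of -0.27. In CD8 T cell-like cells it stood at 103, 131 and 177 CPM in the vehicle libraries and 61.8, 61.2 and 143 CPM in the ginkgetin libraries (log2 fold change -0.65 ± 0.29, adjusted p = 0.539), and in CD4 T cell-like cells at 142, 144 and 213 CPM with vehicle and 105, 120.2 and 200.3 CPM with ginkgetin (log2 fold change -0.25 ± 0.25, adjusted p = 0.800). The groups overlapped in all 9 types. In both of these types replicate 3 was the highest library of each group. Cxcr6 had a median of -0.25, with 273, 332 and 398 CPM with vehicle and 292, 84.9 and 234 CPM with ginkgetin in CD8 T cell-like cells (log2 fold change -0.69 ± 0.38, adjusted p = 0.621) and 475, 444 and 808 CPM with vehicle and 657, 539 and 889 CPM with ginkgetin in Klrb1c T cell-like cells (log2 fold change 0.26 ± 0.31, adjusted p = 0.838).

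Over all pairs tested in thinned cells, 7 of 57 shares did not overlap between groups, against 17.6% over all genes. Those not yet named were in pDC-like and CD4 T cell-like cells. Ccr9 was seen in 44.8, 47.8 and 47.8% of pDC-like cells with vehicle and 52.4, 48.5 and 62.8% with ginkgetin, and before thinning the groups overlapped. Cxcr4 in CD4 T cell-like cells was seen in 6.59, 8.97 and 16.8% with vehicle and 6.33, 4.35 and 6.25% with ginkgetin.

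Summed over all leukocytes of a library, 4 of the 9 receptors were called, against 14.0% of 11901 genes tested (6.37% higher and 7.66% lower with ginkgetin). Cxcr5 rose from 4.02, 5.61 and 3.58 CPM to 12.5, 24.3 and 24 CPM (log2 fold change 2.0 ± 0.30, adjusted p = 0.00624). Ccr7 rose from 26.0, 33.0 and 40.3 CPM to 53.2, 90.8 and 158 CPM (log2 fold change 1.35 ± 0.29, adjusted p = 0.0196). Cxcr6 rose from 56.3, 51.9 and 53.6 CPM to 184, 71.9 and 183 CPM (log2 fold change 1.24 ± 0.34, adjusted p = 0.0406). Cx3cr1 fell from 93.2, 125 and 138 CPM to 34.9, 55.5 and 46.9 CPM (log2 fold change -1.56 ± 0.24, adjusted p = 0.00706). The groups did not overlap in these 4, as in 38.0% of all genes. In such sums more cells of a type and more RNA of the gene per cell cannot be told apart.

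Ccr9 was not called by edgeR in the sum (21.6, 18.4 and 5.74 CPM with vehicle and 32.5, 44.7 and 68.6 CPM with ginkgetin, log2 fold change 1.42 ± 0.47, adjusted p = 0.0714) and passed in DESeq2 (1.39 with adjusted p = 0.0174) and with the replicate block (1.60 with an adjusted p of 0.0338), under which 5 of 9 receptors and 17.0% of genes were called. Ccr2 stood at 234, 201 and 241 CPM with vehicle and 144, 156 and 243 CPM with ginkgetin (log2 fold change -0.54 ± 0.19, adjusted p = 0.0761) and Cxcr3 at 28.6, 26.3 and 27.9 CPM with vehicle and 46.4, 32.8 and 74.1 CPM with ginkgetin (log2 fold change 0.65 ± 0.22, adjusted p = 0.0743). Cxcr4 at 55.4, 60.7 and 145 CPM with vehicle and 102, 95.9 and 186 CPM with ginkgetin and Cxcr2 at 1.55, 0.299 and 3.32 CPM with vehicle and 0.301, 2.54 and 1.84 CPM with ginkgetin overlapped between groups. The calls of Cxcr5 and Cx3cr1 held with each library left out. That of Cxcr6 was lost without any 1 library except ginkgetin replicate 2, at 1.27 with adjusted p = 0.116, 1.23 with adjusted p = 0.131 and 1.15 with adjusted p = 0.114 without vehicle replicates 1, 2 and 3, and 0.86 with adjusted p = 0.101 and 1.21 with adjusted p = 0.0712 without ginkgetin replicates 1 and 3. That of Ccr7 was lost without vehicle replicate 1 (1.20 with adjusted p = 0.0798), vehicle replicate 2 (1.37 with adjusted p = 0.0760) or ginkgetin replicate 2 (1.33 with adjusted p = 0.0543). Without replicate 3 of both groups Cxcr5, Cx3cr1 and Ccr7 were called. With cells kept by the same range applied to UMIs (16821 cells), as the study's methods word it, none of 8 receptors tested was called by edgeR, at 0.89 with adjusted p = 0.404 for Cxcr5, -0.58 with adjusted p = 0.559 for Cx3cr1, 1.16 with adjusted p = 0.30 for Ccr7 and -0.25 with adjusted p = 0.841 for Cxcr6.

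The makeup of the leukocytes differed between the groups. Trem2 macrophage-like cells gave 26.9% ± 4.17 of leukocyte UMIs with vehicle and 2.02% ± 0.351 with ginkgetin (mean ± SD, n = 3 each). Kupffer cell-like cells gave 18.6% ± 0.438 and 6.43% ± 4.63, and B cell-like cells 3.99% ± 1.06 and 14.3% ± 6.04. Most Cxcr5 UMIs came from B cell-like cells in both groups, 80.3% ± 1.5 and 90.2% ± 1.84. Ccr7 UMIs came from mature DC-like cells for 52.5% ± 4.79 with vehicle and 16.4% ± 13.2 with ginkgetin, and from B cell-like cells for 25.6% ± 7.63 and 51.0% ± 9.98. Cxcr6 UMIs came from CD8 T cell-like cells for 40.5% ± 3.56 with vehicle and 14.6% ± 10.9 with ginkgetin, and from Klrb1c T cell-like cells for 14.9% ± 3.06 and 47.1% ± 13.9. Cxcr4 UMIs came from B cell-like cells for 8.18% ± 2.62 and 44.0% ± 12.9, and Cx3cr1 UMIs from Trem2 macrophage-like cells for 49.7% ± 6.32 and 29.3% ± 1.85. These shares carry no test.

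**Figure D5:**
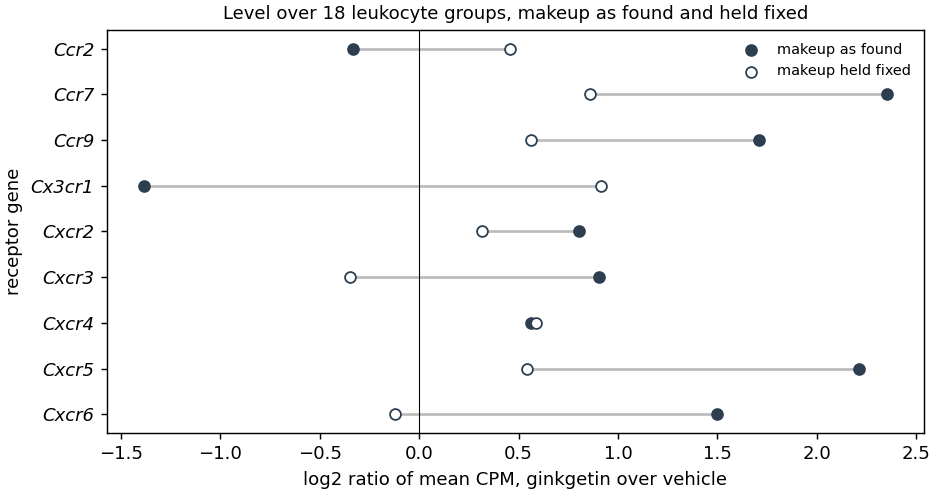
Log2 ratio of the mean CPM over 18 leukocyte groups (x axis), ginkgetin over vehicle, for each receptor (y axis), with the makeup of each library as found and with the weight of each group held at its mean UMI share over the 6 libraries. The value crosses 0 for Ccr2, Cx3cr1, Cxcr3 and Cxcr6 when the makeup is held fixed, and it stays above 0 for Ccr7, Ccr9, Cxcr2, Cxcr4 and Cxcr5.

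With the weight of each type held at its mean UMI share over the 6 libraries, for the 18 groups with at least 10 cells in every library, the log2 ratios of ginkgetin to vehicle were nearer 0 for 7 of the 9 receptors and of the other sign for 4. Cx3cr1 went from -1.38 as found to 0.92, with 63.6, 83.7 and 85.2 CPM with vehicle and 98.2, 202 and 139 CPM with ginkgetin, which did not overlap. Trem2 macrophage-like cells, where Cx3cr1 was higher with ginkgetin, weigh more here than in the ginkgetin libraries, which held 21, 43 and 36 of them. Their part in this value was not tested. Ccr2 went from -0.33 to 0.46, Cxcr3 from 0.90 to -0.35 and Cxcr6 from 1.5 to -0.12. Ccr7 went from 2.35 to 0.86, Ccr9 from 1.71 to 0.56, Cxcr2 from 0.80 to 0.32 and Cxcr5 from 2.21 to 0.54. The groups did not overlap for Cxcr5 either, at 9.17, 10.2 and 10.3 CPM with vehicle and 10.9, 11.7 and 20.8 CPM with ginkgetin. Cxcr4 was at 0.56 as found and 0.59 with the makeup fixed. This weighting was added after the data were seen, leaves out mature DC-like and neutrophil-like cells and 2 T cell clusters, among them the Il7r and Il18r1 cluster in which Cxcr6 was highest, and has no test.

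Several ligands of these receptors fell in the summed leukocytes. Of 19 listed, 12 could be tested, 7 fell and none rose, against 14.0% of all genes called there and 7.66% called lower (edgeR, with 0 higher at an unadjusted p under 0.05, and 0 by DESeq2 or limma-voom), with a median log2 fold change of -1.65 against 0.04 over all genes. Without the third replicates 5 of 12 fell, and with each library left out in turn 4 to 6 fell and 0 to 1 rose. The 7 were the Ccr2 ligands Ccl12 (-3.95), Ccl2 (-1.74) and Ccl7 (-1.55), the Cxcr3 ligand Cxcl10 (-1.95), the Cxcr6 ligand Cxcl16 (-1.87) and the Cxcr2 ligands Cxcl1 (-3.48) and Cxcl2 (-3.69). Ccl12, Cxcl16 and Cxcl10 had the lowest p, and the other 4 are named after their values were seen. With 1 library left out, Ccl12, Ccl2, Cxcl10 and Cxcl16 stayed called, Ccl7 was called only without vehicle replicate 2 and Cxcl1 only without vehicle replicate 1, and Cxcl2 was lost without ginkgetin replicate 2 (adjusted p = 0.0503). Macrophages are a known source of these ligands, and the UMI shares of the macrophage-like types were lower with ginkgetin, as given above. Their part in the result was not tested. Within types 6 of 48 pairs were called, 2 higher and 4 lower, with a median of -0.34, and with the replicate block 4 were called higher and 14 lower. Kupffer cell-like cells had less Ccl12 (-1.95) and Ccl8 (-3.28) and more Cxcl13 (4.36), the Cxcr5 ligand. Trem2 macrophage-like cells also had more Cxcl13 (6.35). cDC2-like cells had less Cxcl10 (-2.41), and classical monocyte-like cells, where 0.600% of genes were called, less Ccl12 (-4.78). The Cxcl13 calls and that of Ccl12 in Kupffer cell-like cells held with each library left out and without the third replicates. The Cxcl10 call was lost without any 1 library except ginkgetin replicate 3 (adjusted p = 0.0531 to 0.216). The Ccl12 call in classical monocyte-like cells was lost without ginkgetin replicate 2 (adjusted p = 0.0729) or the third replicates (adjusted p = 0.0866), and that of Ccl8 without ginkgetin replicate 1 (adjusted p = 0.0510), ginkgetin replicate 3 (adjusted p = 0.112) or the third replicates (adjusted p = 0.109).

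Of 16 other chemokine receptors, 9 could be tested in the summed leukocytes and 2 fell, Ccr1 (-1.74) and Ccrl2 (-2.29), with a median of -0.34, against the 14.0% of all genes called there. With 1 library left out 1 to 4 fell and 0 to 1 rose, and without the third replicates 4 fell and 1 rose. The Ccrl2 call was lost without ginkgetin replicate 2 (-2.18 with adjusted p = 0.0534). Within types none of 37 pairs was called by edgeR, with an unadjusted p under 0.05 in 9, DESeq2 calls in 2 and limma-voom calls in 0. With the replicate block 5 of the 37 were called, all lower, 3 of them in classical monocyte-like cells. Of 25 genes of receptor signalling and desensitization, 23 were tested in the sum, where Rgs2, a G protein regulator, fell by 1.23 on the log2 scale (median -0.11), a call lost without vehicle replicate 1 (adjusted p = 0.0575) or 2 (adjusted p = 0.0690). Within types 3 of 339 pairs were called, all lower, namely Rgs1 (-1.62) in cDC2-like cells, Rgs1 (-2.03) in classical monocyte-like cells and Rac2 (-1.12) in Kupffer cell-like cells. With 1 library left out 0 to 2 were called lower and 0 to 1 higher, and without the third replicates 2 lower and 2 higher. The Rgs1 call in cDC2-like cells was lost without any 1 of the 6 libraries (adjusted p = 0.0583 to 0.227). That in classical monocyte-like cells was lost without vehicle replicate 2 (adjusted p = 0.0768), ginkgetin replicate 2 (adjusted p = 0.146) or the third replicates (adjusted p = 0.0836), and that of Rac2 without vehicle replicate 1 (adjusted p = 0.0589) or 2 (adjusted p = 0.0661). With the block 5 of the 339 were called higher and 10 lower. Of 14 trafficking partners, all tested in the sum with a median of 0.51, those that rose included the sphingosine phosphate receptors S1pr1 (2.05) and S1pr4 (1.24), genes of recirculating lymphocytes. The S1pr4 call was lost without any vehicle library or ginkgetin replicate 1 (adjusted p = 0.0502 to 0.0629). Within types 3 of 196 pairs rose, Itgal (1.40), Klf2 (1.37) and Itgb7 (1.52), all in Kupffer cell-like cells, and with the block 10 rose and 3 fell. With 1 library left out 1 to 3 rose, and without the third replicates 4. Itgal held in each of these fits, while Klf2 was lost without vehicle replicate 1 (adjusted p = 0.0520) or 2 (adjusted p = 0.0579) and Itgb7 without vehicle replicate 2 (adjusted p = 0.0613) or ginkgetin replicate 2 (adjusted p = 0.0533). The 1.48% of all gene and type pairs called without the block and 3.45% with it, and the 12.8% of genes called in Kupffer cell-like cells, are the shares to read these counts against. The endothelial markers that were higher in Kupffer cell-like cells of every ginkgetin library are given above, and their part in the result was not tested. All these calls are edgeR calls as defined above.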

How the data were processed

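Single cells of mouse liver were measured on the 10x Chromium platform, and the authors deposited a table of whole UMI counts per gene and barcode for each library. Per the labels the build was GRCm38 (mm10). The aligner, its version, the annotation and the strand setting are not given in the sources used here. The labels name RNA kits for bulk samples beside the 10x description, and the counts are those of single cells.

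The 9 receptors and the gene lists were chosen with earlier results of these data known. Values per library are given for pairs of receptor and type with a mean of 50 CPM or more in at least 1 group, other pairs are marked where they are named, and up to 3 called genes per list and type were named by lowest p, other genes being marked. Cells with 250 to 5000 genes and under 5% mitochondrial counts were kept. The study's methods word this range as UMIs, which keeps 16821 cells and was an alternative here. Symbols found in only 1 of the 2 barcode sets were left out of clustering and tests. All cells were first clustered without integration in scanpy 1.11.5 (2000 variable genes without chemokine receptors, 30 components, 15 neighbours, Leiden resolution 1). Lymphoid and myeloid cells were then clustered again after integration in Seurat 5.3.0. B cell-like, plasma cell-like and non-leukocyte types were named from the first clustering, without integration. A type needed at least 3 markers, each with a UMI in 25% of cells and 2 times the mean of other clusters. These naming thresholds were set after the data were seen, and the cell type names are rebuilt, not the study's. Scrublet marked at most 0.192% of the cells of a library and was not relied on; the top 5% by its score were left out as an alternative.

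Counts were summed per library and type (at least 10 cells, at least 2 libraries a group) and tested with edgeR 4.0.16 (quasi-likelihood, TMM, filter on low counts, adjusted p under 0.05 and over 2-fold) in R 4.3.3, on all genes. DESeq2 1.42.0, limma-voom 3.58.1, other filters and library subsets were alternatives. The tests were tested on simulated data. Replicate numbers were taken from the titles. Deviations of libraries with the same number were correlated in each of 18 types and in the summed leukocytes (r = 0.138 to 0.649). In each of these, r was highest for replicate 3, which came from another barcode set in both groups. Libraries of different number were not compared, so these values do not show that the number pairs libraries. The replicate number was also fitted as a block. Shares of cells were taken after thinning to 1000 UMIs, which left out 4 vehicle and 59 ginkgetin cells. Values after ± are SEs from edgeR where they follow a log2 fold change or a difference of these, and SDs over libraries elsewhere. Coordinates are from GENCODE M21, and promoters from RefSeq matched 7 of the 9 genes. Some genes that met the naming rule are not reported here.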

Additional observations from a re-analysis of the deposited data

Results flagged for a closer look

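The change with ginkgetin differed between types in 7 cases of a receptor that passed the count filter in both types of a pair, by the test of the difference itself in a joint edgeR fit with the library as a block. All are differences in log2 fold change, and the type pairs were chosen after their values were seen. Between Trem2 macrophage-like and Kupffer cell-like cells (first minus second) the difference was 2.20 ± 0.31 for Cxcr4 (adjusted p = 5.21e-06), 3.53 ± 0.23 for Cx3cr1 (adjusted p = 5.28e-13) and 1.31 ± 0.37 for Ccr2 (adjusted p = 0.0246). Taking CD8 T cell-like minus Kupffer cell-like cells, it was 2.09 ± 0.34 for Cxcr4 (adjusted p = 0.000164) and 4.06 ± 0.47 for Cx3cr1 (adjusted p = 6.82e-07). For CD8 T cell-like minus cDC2-like cells, it was 2.25 ± 0.46 for Cx3cr1 (adjusted p = 0.0121) and 5.20 ± 0.61 for Ccr7 (adjusted p = 3.14e-05). Each of these types also differed between the groups in depth, cluster makeup or markers of other cells as given above, and the part of these in the differences was not tested. The joint fits treat types of the same library as blocked pairs. Groups of 3 libraries are too small for a check of single outlying libraries.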

How the results depend on the processing

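Of 64 receptor and type pairs, 2 were called, against 8 of 157 with no gene filter, 6 with DESeq2, 7 with the replicate block and 7 where barcode set was the block. The count was 1 of 36 with the cell range read as UMIs, 4 with the top 5% by Scrublet score left out, and 1 to 3 with 1 library left out. RLE size factors and receptors kept in the clustering each gave 2, limma-voom and a Leiden resolution of 2 each gave 3. In summed leukocytes 4 of 9 were called, against 2 to 3 with 1 library left out and 0 of 8 with the UMI range. Of the 9 receptors, the replicate block changed no call beyond those given beside the results. Of 57 thinned shares 7 did not overlap, against 10 to 19 of 55 with 1 library left out and 27 with replicates 1 and 2 only, where fewer libraries make overlap rarer.

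Of 1032 fold changes under alternatives, 927 kept direction and side of the threshold, 23 lost and 20 gained a call, and 62 changed sign, of which 51 lay within 1 SE of 0 before and after. Among the log2 fold changes that changed sign, given next, that of Cxcr6 in summed leukocytes had been called and the others had not. With replicates 1 and 2 only, Ccr2 was 0.25 in ILC1-like cells, -0.15 in Klrb1c T cell-like cells and -0.0072 in cDC1-like cells, Cx3cr1 was 0.43 in cDC2-like cells, Cxcr2 was 0.53 in summed leukocytes, Cxcr4 was -0.035 in the Dapl1 Lef1 T cell cluster, 0.048 in Klrb1c T cell-like cells, 0.14 in cDC2-like cells and 0.38 in regulatory T cell-like cells and Cxcr6 was 0.083 in CD4 T cell-like cells. With the UMI range, Cxcr3 was 0.24 in ILC1-like cells and -0.79 in summed leukocytes, Cxcr4 was -0.10 in the Dapl1 Lef1 T cell cluster and Cxcr6 was 0.031 in CD4 T cell-like cells and -0.25 in summed leukocytes. With no gene filter, Ccr2 was -0.021 in cDC1-like cells and Ccr7 was -0.18 in mature DC-like cells. With the replicate block, Ccr7 was -0.024 in mature DC-like cells. With barcode set as the block, Ccr7 was -0.052 in mature DC-like cells. With limma-voom, Cxcr4 was -0.045 in the Dapl1 Lef1 T cell cluster. Without the top 5% by Scrublet score, Cx3cr1 was 0.046 in cDC2-like cells and Cxcr3 was 0.046 in ILC1-like cells. With receptors kept in the clustering, Ccr2 was 0.0037 in ILC1-like cells. At the Leiden resolution of 2, Cx3cr1 was 0.0021 in cDC2-like cells. With 1 library left out, Ccr2 ran from -0.082 to 0.47 in CD4 T cell-like cells, -0.45 to 0.27 in ILC1-like cells, -0.011 to 0.43 in Klrb1c T cell-like cells, -0.31 to 0.0088 in NK cell-like cells, -0.029 to 0.22 in cDC1-like cells, -0.0098 to 0.59 in mixed monocyte-like cells and -0.067 to 1.08 in patrolling monocyte-like cells. Ccr7 ran from -0.24 to 0.29 in mature DC-like cells. Cx3cr1 ran from -0.84 to 0.36 in cDC2-like cells, -0.091 to 0.37 in classical monocyte-like cells and -0.57 to 0.17 in mixed monocyte-like cells. Cxcr2 ran from -0.94 to 0.44 in summed leukocytes. Cxcr3 ran from -0.36 to 0.24 in ILC1-like cells and -1.78 to 0.33 in regulatory T cell-like cells. Cxcr4 ran from -0.35 to 0.33 in the Dapl1 Lef1 T cell cluster, -0.61 to 0.24 in cDC2-like cells, -0.87 to 0.78 in mature DC-like cells, -0.13 to 1.30 in mixed monocyte-like cells and -0.56 to 0.82 in regulatory T cell-like cells. Cxcr6 ran from -0.18 to 0.14 in CD4 T cell-like cells. With the makeup held fixed, the log2 ratios of Ccr2, Cx3cr1, Cxcr3 and Cxcr6 were 0.46, 0.92, -0.35 and -0.12. The difference in CD4 T cell-like cells with a Cxcr4 UMI was 0.493 percentage points when thinned to 500 UMIs. The causes were not tested. Depth also limits the small types, where 1 UMI can be a large share.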

Other observations

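Dividing cells and other clusters without a name (1927 cells) enter no comparison above. In the dividing lymphoid cluster led by Hist1h2ap and Hells (73 vehicle and 118 ginkgetin cells), Cxcr6 was 225 CPM with vehicle and 172 CPM with ginkgetin and Cxcr3 115 CPM with vehicle and 68.0 CPM with ginkgetin. In that led by Ube2c and Cenpf, Cxcr6 was 289.6 CPM with vehicle and 169 CPM with ginkgetin and Cxcr3 131 CPM with vehicle and 95.8 CPM with ginkgetin. In the dividing myeloid cluster led by Stmn1 and Birc5 (288 vehicle and 92 ginkgetin cells), Ccr2 was 171 CPM with vehicle and 187 CPM with ginkgetin, Cx3cr1 114 CPM with vehicle and 41.3 CPM with ginkgetin and Cxcr4 51.9 CPM with vehicle and 86.1 CPM with ginkgetin. In the dividing cluster with the cDC1 genes Naaa and Xcr1, Ccr2 was 285 CPM with vehicle and 291 CPM with ginkgetin. A cluster led by Fcgr4 and Cd300e came from vehicle replicate 1 for 92 of its 94 cells and held Cx3cr1 at 65.3 CPM. These are pooled over libraries and have no test.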
